A study of Mus musculus with 8 samples.

Results

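The genes described here are 9 genes of energy supply, oxygen storage and calcium buffering in muscle, namely the creatine kinases Ckm, Ckmt2 and Ckb, the glycogen and glycolysis enzymes Pygm, Pgam2 and Eno3, the oxygen carrier Mb, the fatty acid carrier Fabp3 and the calcium buffer Pvalb. They were found on the array by symbol, were chosen with earlier results of these data known, and are 9 of the 21946 named genes and 11 of the 45281 probes measured. Ckmt2 and Mb have 2 probes each; the probe with the larger standard deviation over all arrays is the one reported, and the other is given beside it. Total RNA of mouse skeletal myoblasts was hybridized to 8 Illumina WG-6 v2.0 arrays. The 4 groups were siG9a cells at day 1, control cells at day 1, siG9a cells at day 0 and control cells at day 0, with 2 biological replicates and 1 array per sample. siG9a cells received an siRNA directed at G9a, an enzyme that methylates lysine 9 of histone H3 and is encoded by Ehmt2, and control cells received a scrambled siRNA. The labels name no strain, no age and no cell line, and do not say which event the days were counted from.

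Myoblasts are the dividing precursors of muscle fibres. When they leave the cell cycle and fuse into myotubes, they switch from enzyme forms found in most tissues to forms made for contraction. Creatine kinases move phosphate between ATP and creatine, so that the mitochondrial form charges phosphocreatine and the cytosolic forms recharge ATP where it is used. Glycogen phosphorylase, phosphoglycerate mutase and enolase each have a muscle form that feeds glycolysis, while myoglobin holds oxygen, the heart-type fatty acid-binding protein carries fuel to mitochondria and parvalbumin takes up calcium in fast fibres. G9a has been described as a repressor of myogenic differentiation.

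Values are log2 units around a level that differs from probe to probe, so levels cannot be compared between genes, and no value shows that a gene is absent. The base of the logarithm is taken as 2 and is not stated, and every fold below rests on it. The targeted transcript was low in siG9a cells: the reported Ehmt2 probe was at -0.95 and -0.31 at day 1 and at -0.82 and -0.69 at day 0 in siG9a cells (replicates 1 and 2), against 0.77 and 0.66 at day 1 and 1.23 and 0.59 at day 0 in control cells. Its siG9a minus control difference was -1.34 ± 0.27 (SE, n = 2 arrays per group) at day 1 and -1.67 ± 0.27 at day 0, the lowest of all 31443 features on both days, with a limma adjusted p of 1.0 in both. A second Ehmt2 probe differed by -1.31 and -1.72, and another by only -0.16 and -0.14. Of 7 myogenic markers, 4 rose at day 1 in siG9a cells and 5 in control cells when the replicate number was a term of the model, which called 3.42% and 3.85% of all features higher, and 0 of 7 were called without it. With that term Myog, the myogenin gene, rose by 3.28 in siG9a and 3.92 in control cells, and Myod1 by 1.19 and 1.17.

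The strongest pattern among the 9 genes was a higher level at day 1 than at day 0, in siG9a and in control cells alike. All 9 were higher at day 1 in both replicate pairs of both treatments, which held for 49.8% of all features in siG9a cells and 31.3% in control cells. The median day 1 minus day 0 difference of the 9 genes was 1.76 in siG9a cells, where the median of all features was 0.09, and 2.18 in control cells, where it was 0.01. The mean of the 9 genes on each array was 1.12 and -0.51 at day 1 and -0.87 and -2.62 at day 0 in siG9a cells, and 0.69 and -0.66 at day 1 and -1.77 and -2.70 at day 0 in control cells. In limma, with 4 group means, none of the 9 passed an adjusted p of 0.05 in either treatment (adjusted over all 31443 features), although 6 of 9 had an unadjusted p under 0.05 in each, as did 7.82% of all features in siG9a cells and 7.70% in control cells. That model called 0.906% of features in siG9a cells, 0.229% as higher, and 1.12% in control cells, 0.363% as higher. Same-numbered replicates deviated together in these data, so the numbers were taken to pair the samples, which the labels do not state. With the replicate number as a term (the blocked model below), 7 of 9 genes were called higher in siG9a cells and 7 of 9 in control cells. Its background was 8.98% of features called in siG9a cells, 3.42% as higher, and 8.83% in control cells, 3.85% as higher. Ckm, Ckb, Mb, Pygm, Pgam2 and Fabp3 were called in both treatments, Ckmt2 in siG9a cells and Eno3 in control cells. The 2 day 1 arrays both lay above the 2 day 0 arrays for 6 genes in siG9a cells, against 17.98% of features, and for 8 genes in control cells, against 13.4% of features.

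**Figure D1:**
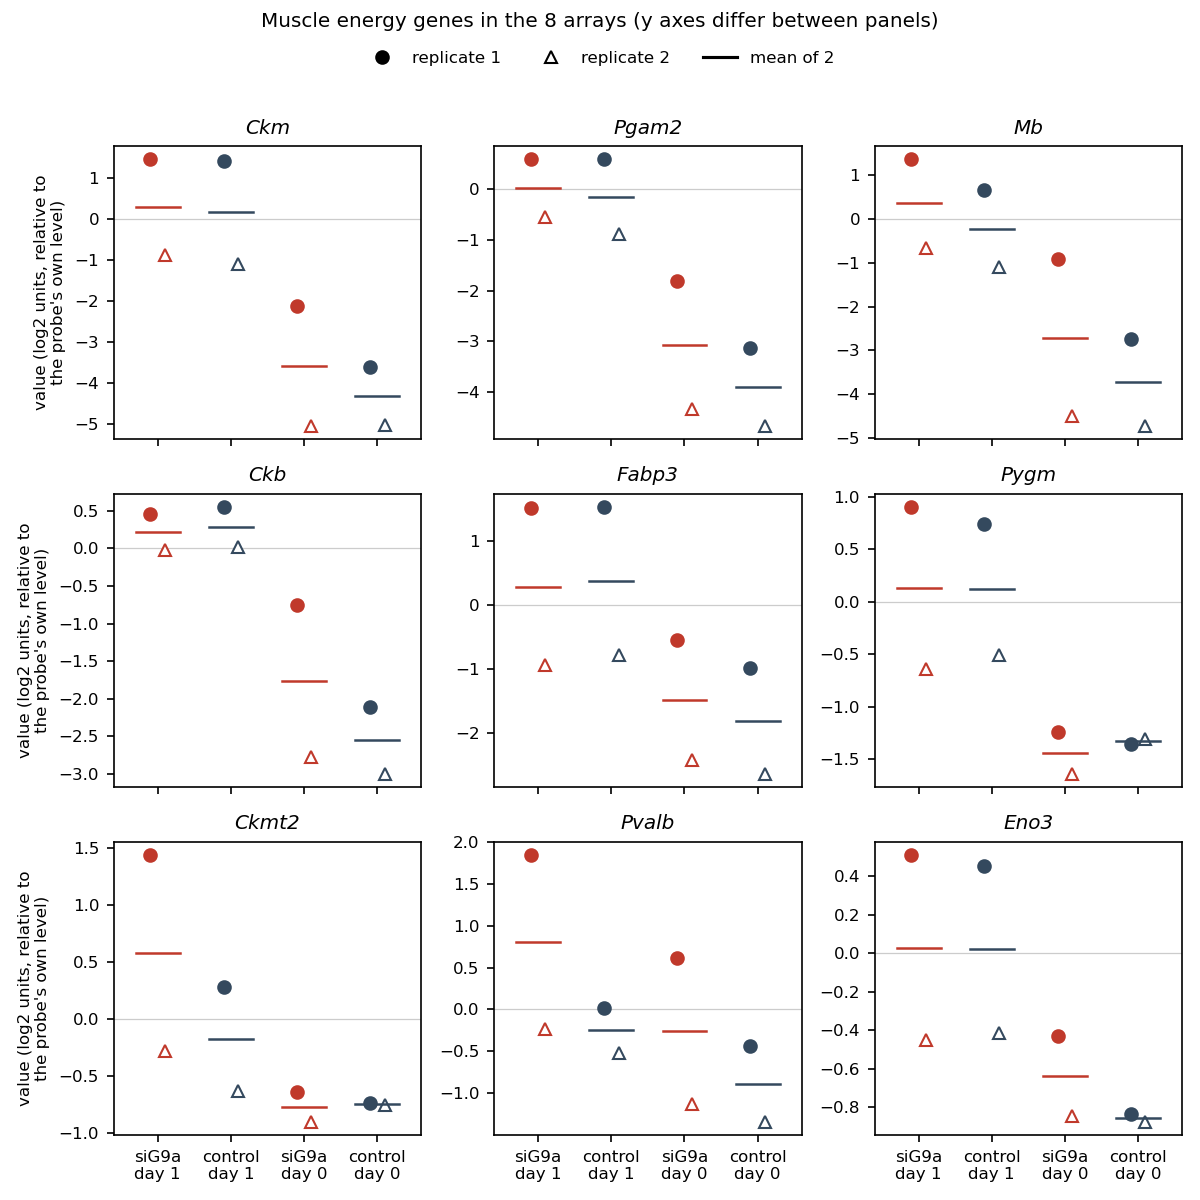
Value of each of the 9 genes on each array (y axis, log2 units relative to the probe's own level; axes differ between panels) in siG9a and control cells at day 1 and at day 0 (x axis). Filled circles are replicate 1, open triangles replicate 2 and lines the mean of 2; Ckm, for example, averages 0.29 and 0.16 at day 1 against -3.58 and -4.30 at day 0, and replicate 1 lies above replicate 2 in nearly every column.

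The 3 creatine kinases differed in how far they rose. Ckm, the cytosolic muscle form bound in part at the sarcomere's M-band, was at 1.45 and -0.87 at day 1 and at -2.12 and -5.03 at day 0 in siG9a cells. In control cells Ckm was at 1.42 and -1.10 at day 1 and at -3.60 and -5.00 at day 0. Every day 1 array lay above every day 0 array, and replicate 2 was the lower one in all 4 groups. The day 1 minus day 0 difference was 3.87 in siG9a cells, a 14.6-fold rise (SE 1.15, or 0.28 in the blocked model), and 4.46 in control cells, a 22.1-fold rise with the same errors. Leaving out 1 array without the replicate term gave 2.41 to 5.33 in siG9a cells (without replicate 2 and without replicate 1 of siG9a day 0) and 3.20 to 5.73 in control cells, and with it 3.45 to 4.28 and 3.87 to 5.06. The Ckm difference ranked 5th from the top of all features in both treatments. Blocked limma gave Ckm an adjusted p of 1.3e-04 in siG9a cells (6.9e-05 to 0.714 over the alternatives) and 5.1e-05 in control cells (2.3e-05 to 0.797).

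Ckb, the cytosolic form of brain and many other tissues, which myoblasts also express, was at 0.46 and -0.02 at day 1 and at -0.76 and -2.77 at day 0 in siG9a cells. Its control values were 0.55 and 0.02 at day 1 and -2.11 and -3.00 at day 0. At day 1 the 4 arrays lay close together, whereas at day 0 the siG9a array of replicate 1 stood well above the other 3. The difference was 1.98 in siG9a cells and 2.84 in control cells (SE 0.58, blocked 0.31), a 3.95-fold and a 7.14-fold rise with blocked adjusted p of 0.00423 (1.3e-04 to 0.696) and 5.9e-04 (1.2e-05 to 0.329). Without replicate 2 of siG9a day 0 the blocked siG9a difference of Ckb was 1.29. Ckmt2, the mitochondrial muscle form, was at 1.44 and -0.28 at day 1 and at -0.65 and -0.90 at day 0 in siG9a cells, and at 0.28 and -0.63 at day 1 and -0.74 and -0.75 at day 0 in control cells. The siG9a replicate 1 array at day 1 was the one high value. Ckmt2 rose by 1.35 in siG9a cells (blocked SE 0.33, blocked adjusted p 0.0348, 0.00347 to 0.752 over the alternatives), and the control difference of 0.57 was not called (blocked adjusted p 0.444, 0.132 to 1.0). Its second probe gave 1.07 and 0.48. The siG9a call of Ckmt2 was lost in 5 of 8 blocked fits that left out 1 array each (without replicate 1 or 2 of siG9a day 0 or control day 1, or replicate 1 of siG9a day 1), with an adjusted p of up to 0.251 and a difference of 0.69 without replicate 1 of siG9a day 1.

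The upstream sequences of 4 genes are shown because Ckm and Pgam2 had the 2 largest rises among the 9, and Ckb and Pvalb are the genes whose first promoter entry holds no E-box. The lines give the 250 bases before the annotated start, 5′ to 3′ on the gene's strand (RefSeq, GRCm38.p6), for Ckm at chr7:19410844-19411093 on the plus strand, Pgam2 at chr11:5803797-5804046, Ckb at chr12:111672339-111672588 and Pvalb at chr15:78206401-78206650, the last 3 on the minus strand. Capitals mark matches to the E-box CANNTG, bound by MyoD-family factors, and to the 10-base MEF2 consensus.
Ckm: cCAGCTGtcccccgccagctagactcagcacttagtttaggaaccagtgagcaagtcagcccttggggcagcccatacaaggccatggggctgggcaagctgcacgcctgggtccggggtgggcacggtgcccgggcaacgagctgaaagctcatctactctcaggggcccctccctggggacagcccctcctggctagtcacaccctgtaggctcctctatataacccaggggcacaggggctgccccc
Pgam2: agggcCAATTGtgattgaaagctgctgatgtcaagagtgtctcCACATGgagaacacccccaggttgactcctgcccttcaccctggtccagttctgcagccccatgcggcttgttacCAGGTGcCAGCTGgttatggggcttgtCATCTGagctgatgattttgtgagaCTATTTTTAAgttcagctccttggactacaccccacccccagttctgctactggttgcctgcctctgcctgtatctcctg
Ckb: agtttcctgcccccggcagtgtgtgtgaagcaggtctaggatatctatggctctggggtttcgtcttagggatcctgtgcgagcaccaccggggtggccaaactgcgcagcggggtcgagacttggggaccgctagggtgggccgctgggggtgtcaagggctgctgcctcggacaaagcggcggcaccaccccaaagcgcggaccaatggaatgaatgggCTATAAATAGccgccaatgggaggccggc
Pvalb: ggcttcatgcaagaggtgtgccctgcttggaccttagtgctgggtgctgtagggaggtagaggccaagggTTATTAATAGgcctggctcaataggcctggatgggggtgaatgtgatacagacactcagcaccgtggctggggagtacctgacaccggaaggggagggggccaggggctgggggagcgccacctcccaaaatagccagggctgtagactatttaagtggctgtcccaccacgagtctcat
All 9 genes matched the promoter table, with 12 entries, since Mb has 3 and Pvalb 2, and 2 of those of Mb overlap. The 300 bases from 250 before to 50 after the start were read on both strands, and a gene counts if any of its entries matches. The CANNTG box was found for 8 of 9 genes, in 10 of 12 entries, and in 72.3% of all 32851 promoters. Its form CAGCTG was found for 6 genes, namely Ckm, Ckmt2, Eno3, Mb, Pgam2 and Pygm, in 7 of 12 entries, and in 16.3% of promoters. The MEF2 consensus was found for Ckb, Pgam2 and Pvalb, in 3 of 12 entries, and in 3.19% of promoters. In Ckb it lies at bases -29 to -20 and covers the only TATAAA box found among the 9 genes (13.6% of promoters). In Pgam2 the MEF2 match lies at -80 to -71 and a CAGCTG box at -125 to -120. The CArG box (1.63% of promoters) and the MEF3 motif TCAGGTT (4.07%) were found in none of the 12. These are matches of letters only.

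Among the enzymes of glycogen use and glycolysis, Pgam2, the muscle phosphoglycerate mutase, rose most. In siG9a cells it was at 0.59 and -0.55 at day 1 and at -1.81 and -4.34 at day 0. In control cells it was at 0.59 and -0.88 at day 1 and at -3.14 and -4.66 at day 0. The day 1 and day 0 arrays did not overlap in either treatment. Pgam2 was 8.53-fold higher at day 1 in siG9a cells and 13.5-fold higher in control cells, differences of 3.09 and 3.75 (SE 0.85, blocked 0.26), with blocked adjusted p of 2.1e-04 (3.4e-05 to 0.686) and 7.7e-05 (3.7e-06 to 0.525). In control cells its 2 replicate pairs gave nearly the same rise, 3.73 and 3.78, while in siG9a cells they gave 2.40 and 3.79.

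Pygm, the muscle glycogen phosphorylase, was at 0.90 and -0.64 at day 1 and at -1.24 and -1.64 at day 0 in siG9a cells. Its control values were 0.75 and -0.51 at day 1 and -1.35 and -1.30 at day 0. The day 0 arrays were close to each other in both treatments, and the rise was larger in replicate 1, by 2.14 and 2.10, than in replicate 2, by 0.9997 and 0.80. The mean difference was 1.57 in siG9a and 1.45 in control cells (SE 0.51, blocked 0.32), with blocked adjusted p of 0.0153 (0.00634 to 0.739) and 0.0217 (0.00815 to 1.0). The siG9a call was lost without replicate 1 of siG9a day 0 or day 1 (adjusted p up to 0.126). The control call was lost without replicate 1 of control day 0 or either replicate of control day 1 (up to 0.226), and the difference was 0.89 without replicate 1 of control day 0.

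Eno3, the muscle enolase, had the smallest difference of the 9 in siG9a cells. It was at 0.51 and -0.45 at day 1 and at -0.43 and -0.85 at day 0 in siG9a cells, where the groups overlapped, and at 0.45 and -0.41 at day 1 and -0.83 and -0.88 at day 0 in control cells, where they did not. The difference was 0.67 in siG9a cells and 0.88 in control cells (SE 0.36, blocked 0.20). Only the control difference was called in the blocked model (adjusted p 0.0255, 0.00945 to 1.0 over the alternatives, against 0.0782, from 0.0277 to 0.995, in siG9a cells), and that call was lost without replicate 1 of control day 0 or either replicate of control day 1 (up to 0.254), with a difference of 0.52 without replicate 1 of control day 0. In siG9a cells Eno3 passed in 2 of 8 blocked fits, those without either replicate of control day 0. Whether the 2 treatments differ was tested directly: the interaction of Eno3 was -0.21 ± 0.51 (SE), not called.

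Mb, which encodes the oxygen store of oxidative muscle, was at 1.36 and -0.65 at day 1 and at -0.92 and -4.51 at day 0 in siG9a cells. In control cells Mb was at 0.65 and -1.10 at day 1 and at -2.73 and -4.72 at day 0. The 2 siG9a arrays at day 0 were 3.59 units apart, the widest gap between replicates among the 9 genes. The mean difference was 3.07 in siG9a cells, an 8.40-fold rise, and 3.51 in control cells, an 11.4-fold rise (SE 1.19, blocked 0.36), with blocked adjusted p of 0.000925 (3.2e-05 to 0.790) and 4.1e-04 (3.7e-06 to 1.0). Leaving out 1 array without the replicate term gave 1.28 to 4.86 in siG9a cells (without replicate 2 and without replicate 1 of siG9a day 0) and 2.51 to 4.50 in control cells, and with it 2.24 to 3.90 and 3.11 to 3.90. The second Mb probe rose by 2.96 and 3.21.

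Fabp3, the fatty acid carrier of heart and oxidative muscle, was at 1.503 and -0.94 at day 1 and at -0.54 and -2.41 at day 0 in siG9a cells, where the groups overlapped. In control cells it was at 1.52 and -0.78 at day 1 and at -0.98 and -2.63 at day 0. The replicates were 1.65 to 2.44 units apart in every group, yet the 2 pairs rose by similar amounts, 2.04 and 1.47 in siG9a cells and 2.50 and 1.85 in control cells. The mean rise was 1.76, or 3.38-fold, in siG9a and 2.18, or 4.52-fold, in control cells. Its SE shrank from 1.02 to 0.18 once the replicate number was a term, with blocked adjusted p of 4.8e-04 (3.6e-04 to 0.988) and 1.5e-04 (1.1e-04 to 1.0).

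Pvalb, the calcium buffer of fast fibres, was at 1.84 and -0.23 at day 1 and at 0.61 and -1.12 at day 0 in siG9a cells, and at 0.02 and -0.52 at day 1 and -0.44 and -1.34 at day 0 in control cells. Day 1 and day 0 overlapped in both treatments. Both siG9a arrays of replicate 1 were above every control array. The day 1 minus day 0 difference was 1.06 in siG9a and 0.64 in control cells (SE 0.72, blocked 0.31), and neither was called (blocked adjusted p 0.0703, 0.0235 to 0.999 over the alternatives, and 0.326, 0.0916 to 1.0). Pvalb passed in siG9a cells in 3 of 8 blocked fits that left out 1 array (either replicate of control day 1, or replicate 2 of siG9a day 1). Across those 8 fits, Ckm, Ckb, Mb, Pgam2 and Fabp3 were called in all 8 in both treatments.

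**Figure D2:**
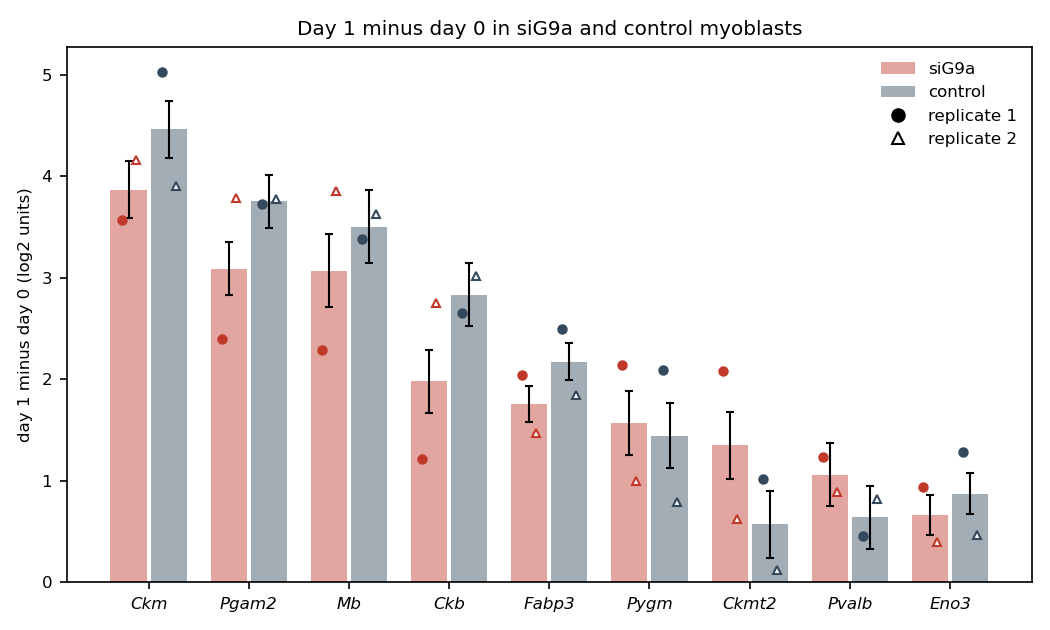
Day 1 minus day 0 (y axis, log2 units) for the 9 genes (x axis) in siG9a cells (red) and control cells (grey). Bars are means of 2 replicates with the SE of the model that has the replicate number as a term, circles replicate 1 and triangles replicate 2; all points lie above 0, and the bars run from Ckm at 3.87 and 4.46 to Eno3 at 0.67 in siG9a cells and Ckmt2 at 0.57 in control cells.

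The 2 replicates stood apart in these genes. Replicate 1 was above replicate 2 for 9 of 9 genes in siG9a cells at day 1 (median gap 1.72), for 9 of 9 in control cells at day 1 (1.26), for 9 of 9 in siG9a cells at day 0 (1.87) and for 8 of 9 in control cells at day 0 (0.90). Over all features the median gap ran the other way, between -0.20 and -0.13. Pygm in control cells at day 0 was the one gene lower in replicate 1, by -0.05. The mean of 7 myogenic markers on each array was also higher in replicate 1, at 0.46 in siG9a and 0.47 in control cells at day 1 and -0.29 and -0.57 at day 0, against -0.08, -0.13, -1.46 and -1.67 in replicate 2. The mean of 6 fibroblast markers was lower in replicate 1, between -0.93 and -0.44, than in replicate 2, between 0.50 and 1.61. In bulk RNA, a smaller share of differentiating cells and less transcript per cell cannot be told apart. The part of the cell mixture in the replicate gap was not tested.

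No difference between siG9a and control cells was called for any of the 9 genes within a day. At day 1, at day 0, as the mean of both days and in the interaction, limma called 0 of 9 genes and 0.0% of features with and without the replicate term; without it, 54, 123, 148 and 18 features had an unadjusted p under 0.05, and with it 1195, 1728, 1540 and 1382. In the blocked model 2 of the 9 genes had an unadjusted p under 0.05 at day 1 and 4 at day 0, and in the unblocked model none. At day 1, 4 of the 9 genes were higher in siG9a cells in both replicate pairs and 2 were lower, against 33.2% and 22.5% of features. At day 0, 6 were higher in both pairs and 0 lower, against 20.0% and 34.2% of features. With the pairing set aside, the siG9a and control arrays overlapped for all 9 genes on both days. Of all features, 8.54% at day 1 and 5.54% at day 0 lay wholly higher in siG9a cells, and 4.94% and 11.27% wholly lower.

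At day 1 the 2 largest siG9a minus control differences were those of Pvalb and Ckmt2, and both came mainly from replicate 1. Pvalb differed by 1.82 in replicate 1 and 0.29 in replicate 2, a mean of 1.05 ± 0.72 (SE, blocked 0.31) that ran from 0.019 to 2.09 when 1 array was left out. Ckmt2 differed by 1.15 and 0.35, a mean of 0.75 ± 0.50, and its second probe by 1.29 and 0.19. Mb differed by 0.71 and 0.44, a mean of 0.58 ± 1.19. The other 6 genes lay between -0.09 for Fabp3 and 0.17 for Pgam2. At day 0 the order was another one: Mb differed by 1.01 (1.81 in replicate 1 and 0.21 in replicate 2), Pgam2 by 0.83 (1.33 and 0.33), Ckb by 0.79 (1.35 and 0.23), Ckm by 0.73 (1.48 and -0.03) and Pvalb by 0.63 (1.05 and 0.22). Fabp3 and Eno3 followed with 0.33 and 0.22, and Ckmt2 and Pygm were at -0.03 and -0.11. Replicate 1 gave the higher difference for each of the 9 genes at day 0.

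When the 4 siG9a minus control differences, 1 for each day and replicate, were fitted as 4 values, 2 of 9 genes were called, against 0.814% of features (0.382% as higher). Mb averaged 0.79 ± 0.16 (limma adjusted p 0.0159, from 4.4e-04 to 1.0 over the alternatives) and Pvalb 0.84 ± 0.16 (adjusted p 0.0143, from 2.8e-04 to 1.0). Both genes were higher in siG9a cells in 4 of 4 pairs, as were 6.64% of all features. Leaving out 1 array in the model of group means moved the Mb mean between -0.10 (without replicate 1 of siG9a day 0) and 1.69, and that of Pvalb between 0.33 and 1.36. The fit of 4 differences takes the 2 days of a replicate as independent. Without the day 1 pair of replicate 1 both calls were lost (Mb adjusted p 0.0642, Pvalb 0.0903) and Pgam2 was called instead (0.0412), and without the day 0 pair of replicate 2 Ckmt2 was called as well (0.0474). Ehmt2 itself averaged -1.503 ± 0.12 in this fit, with an adjusted p of 1.1e-06.

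**Figure D3:**
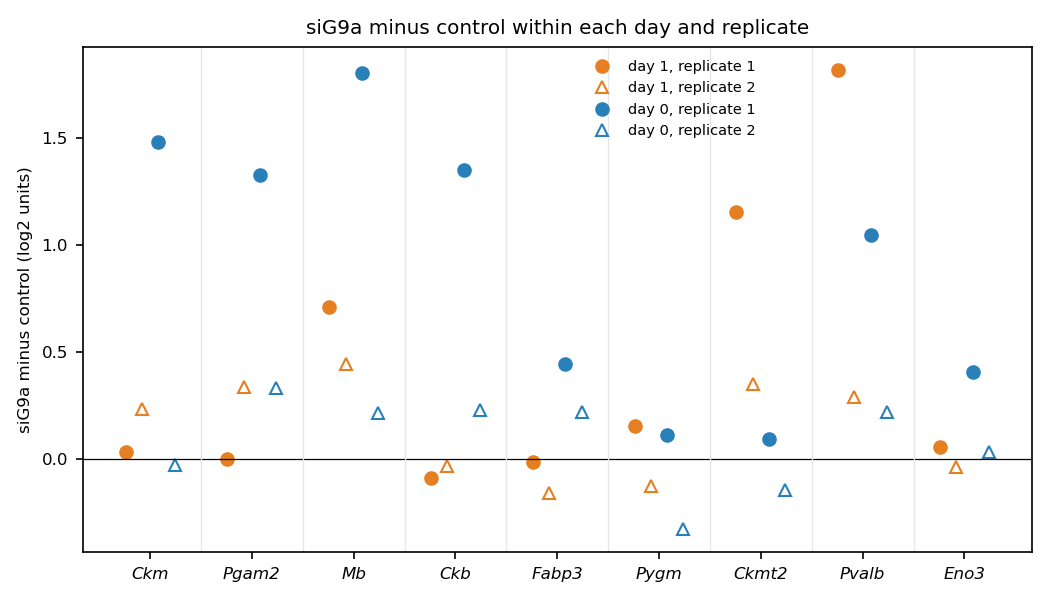
siG9a minus control (y axis, log2 units) for the 9 genes (x axis) within each day and replicate: orange for day 1, blue for day 0, filled circles for replicate 1 and open triangles for replicate 2. Mb and Pvalb lie above 0 in all 4 pairs, and the largest values, such as 1.82 for Pvalb at day 1 and 1.81 for Mb at day 0, belong to replicate 1.

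A set of 11 related genes held isoforms or family members of the 9, and also Ak1 and Ampd1, which are not isoforms of them. Of the 11, 10 were analysed here. In the blocked model 3 of 10 were called in siG9a cells and 1 of 10 in control cells, against 8.98% and 8.83% of all features. Only Cygb, the cytoglobin gene, rose, and it did so in both treatments, by 0.95 and 0.93 (adjusted p 0.0315 and 0.0358). Pgam1, the mutase form of most tissues, fell by -0.82 in siG9a cells (adjusted p 0.00424) and was at -0.47 in control cells (0.0581), while Pgam2 rose. Pygb, the brain glycogen phosphorylase, fell by -0.64 in siG9a cells (0.0279) and was at -0.42 in control cells (0.148), while Pygm rose. Ckmt1, the ubiquitous mitochondrial creatine kinase, was at 0.08 and -0.01, and the fatty acid carriers Fabp4 and Fabp5 at 0.04 and -0.16 in siG9a cells and -0.11 and -0.47 in control cells, none of them called. A second Fabp5 probe was at 0.24 in siG9a cells and 0.11 in control cells, on the other side of 0. So was a second Ckmt1 probe, at -0.03 and 0.17. A second Pgam1 probe was at -0.64 and -0.38. Ampd1, the muscle AMP deaminase, was at 1.31 and 0.96, the adenylate kinase Ak1 at -0.14 and -0.13, the liver phosphorylase Pygl at 0.28 and -0.03 and the neuronal enolase Eno2 at 0.01 and 0.22, also not called. Second probes were at 1.01 and 0.75 for Ampd1 and at 0.01 and -0.21 for Pygl.

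The wider pathways were mixed. Over all features the blocked model called 5.56% lower at day 1 in siG9a cells and 4.97% in control cells, beside the shares called higher given above. The medians of 7 related lists lay between -0.07 and 0.31 in the 2 treatments. Of 14 phosphagen and adenylate genes, 3 rose and 1 fell in siG9a cells and 4 rose in control cells in the blocked model. Among them Gamt, which makes creatine, rose by 1.19 and 1.66, and Adssl1, the muscle adenylosuccinate synthase, by 1.10 and 1.40. Ak3, a mitochondrial adenylate kinase, rose by 0.60 and 0.77. Ampd3 rose by 0.71 in control cells and was at 0.41 in siG9a cells, not called. Ampd2 fell by -0.48 in siG9a cells and was at -0.27 in control cells, not called. Of 17 glycogen genes, 3 rose and 1 fell in siG9a cells and 4 rose in control cells, with Stbd1, a glycogen-binding protein, at 0.73 and 0.94 and Phkb, a phosphorylase kinase subunit, at 0.63 and 0.57. Gyg, the glycogenin gene that primes glycogen, rose by 0.86 in siG9a cells, and Gaa, the lysosomal glucosidase, and Phka2, another phosphorylase kinase subunit, rose by 0.95 and 0.63 in control cells. Of 17 glycolysis genes, 1 rose and 3 fell in siG9a cells, and 1 rose and 1 fell in control cells. Pfkm, the muscle phosphofructokinase, rose by 1.37 and 1.60, Pkm, the pyruvate kinase gene, fell by -0.84 and -0.77, and Slc2a1, the basal glucose transporter, fell by -0.91 in siG9a cells. Of 15 fatty acid genes none rose, and Cpt2, the inner-membrane carnitine palmitoyltransferase, fell by -0.53 in siG9a cells.

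Of 10 oxygen and haem genes, 1 rose and 1 fell in siG9a cells, and 2 rose and 1 fell in control cells. Alad, an enzyme of haem synthesis, fell by -0.61 and -0.64. Alas1, an earlier enzyme of the same pathway, rose by 0.45 in control cells and was at 0.34 in siG9a cells, not called. Of 11 calcium-binding genes, 4 rose and 3 fell in siG9a cells, and 3 rose and 1 fell in control cells. The largest rises were in the sarcoplasmic reticulum genes Casq2 (3.27 and 3.50), Hrc (3.27 and 3.72) and Srl (3.04 and 3.39), whereas Calm2, a calmodulin gene, fell by -0.50 and -0.58. Casq1, the fast-fibre calsequestrin, rose by 0.86 and Sri, the sorcin gene, fell by -0.88 in siG9a cells. In control cells they were at 0.46 and -0.61, not called. Of 16 regulators, 4 rose and 1 fell in siG9a cells and 5 rose in control cells. Myog, Mef2c (1.72 and 2.24), Myod1 and Prkag3, the AMP kinase subunit of muscle (2.08 and 2.17), rose in both; Ppargc1b rose by 0.85 in control cells and Ppard fell by -0.55 in siG9a cells, while Ppargc1a, a coactivator of mitochondrial genes, was at 0.22 and 0.02, not called. Prkag3 in control cells was the one gene of these lists called without the replicate term (adjusted p 0.0414). In siG9a minus control no gene of the 7 lists was called at either day. None was called in the interaction either, so a call in only 1 treatment does not show that the treatments differ.

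**Figure D4:**
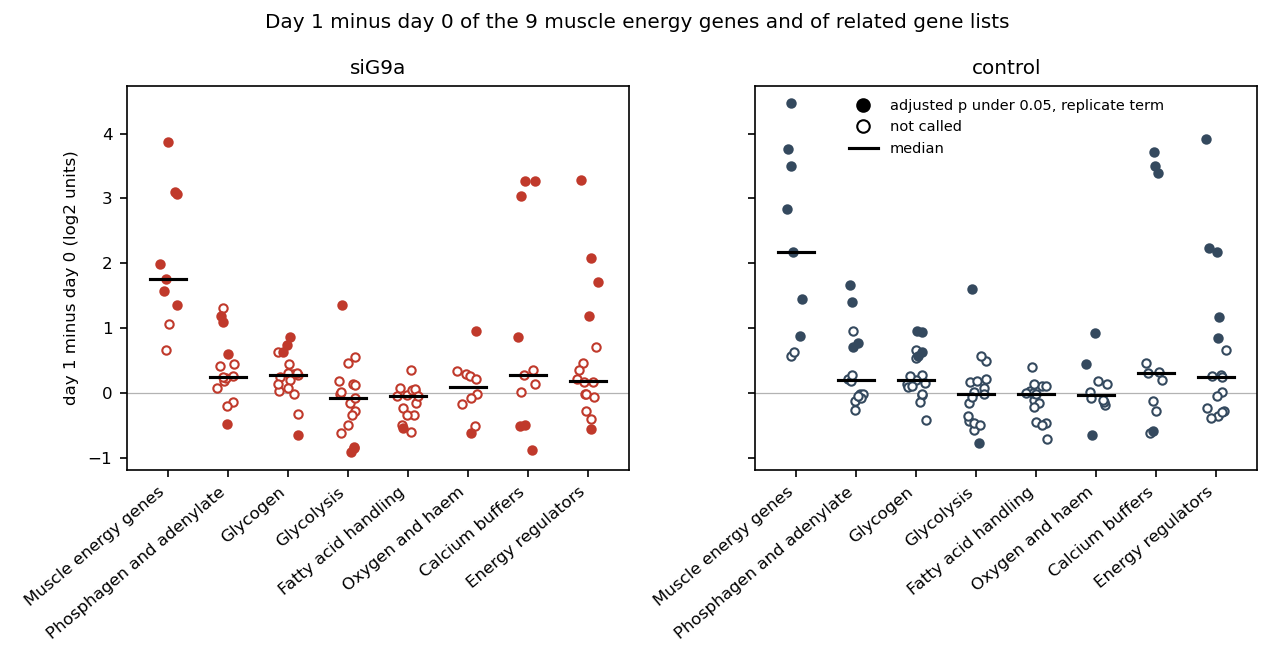
Day 1 minus day 0 (y axis, log2 units) for the 9 muscle energy genes and for 7 related gene lists (x axis) in siG9a cells (left) and control cells (right). Each point is a gene, filled where blocked limma gave an adjusted p under 0.05, and lines are medians: 1.76 and 2.18 for the 9 genes, against -0.07 to 0.31 for the lists.

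Likeness was measured as the root mean square difference between 2 genes over the 8 arrays after centring each gene. Neighbours were sought among all named genes, for each of the 9 genes that spanned more than 1.5 units. Pgam2 lay closest to Ttn, the titin gene (0.081 units), then to Hrc (0.17), Cox8b (0.17), Myom2 (0.22) and Ryr1 (0.22). Ckm lay closest to Casq2 (0.47) and Hrc (0.47), followed by Fgf21, Unc45b and Cox8b, and Mb to Tnni1, the slow skeletal troponin I (0.27), and Myom3 (0.31), followed by Mymk, Hrc and Casq2. Ckb lay closest to Pkia (0.22), Fabp3 to Arpp21 (0.18), Pygm to Popdc2 (0.13), Ckmt2 to Art5 (0.17) and Pvalb to Cxcl13 (0.30), which leaves Pvalb with the least close nearest gene after Ckm. Eno3 spanned only 1.38 units and was given no neighbours. Among the 9 genes themselves the closest pairs were Ckmt2 with Eno3 (0.35), Ckmt2 with Pygm (0.39) and Mb with Pgam2 (0.41). The distances are not scaled, so they depend on how far a gene spans as well as on its pattern. Eno3, Ckmt2 and Pygm spanned 1.38, 2.34 and 2.54 units, against 6.49 for Ckm. The points share arrays and replicate gaps, so these distances are descriptions of 8 arrays and carry no p.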

How the data were processed

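Biotin-labelled total RNA from 8 myoblast samples was hybridized to 1 array each. The log2 values are those the authors deposited as the processed table of the series, 45281 probes, each centred near its own level; their base is not stated and is taken as 2. For the software, the background correction and the normalization, nothing is given in the sources used here. An unnormalized table, with 16 signal and detection columns whose names match no sample label, was not used, so detection filters, other background corrections and signal over background could not be examined.

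Symbols came from the platform table, updated through Entrez ID (28620 probes) or accession (2637), with 4527 kept as given and 9497 probes unnamed. The probe of largest standard deviation stood for each gene, giving 31443 features. limma 3.58.1 in R 4.3.3 fitted 4 group means over 8 arrays, without an intensity trend (4.59 prior degrees of freedom); calls were made at a p under 0.05 after Benjamini-Hochberg adjustment over all features. An exact permutation test of 2 against 2 arrays has a smallest possible p of 0.333 and was not used. The title numbers were treated as pairing the replicates, since deviations from the group means correlated at r 0.613 to 0.865 in all 6 pairs of groups; the blocked model adds the number as a term (5.87 prior degrees of freedom). The model without the replicate term was checked on simulated data with known siG9a minus control changes at day 1. The simulated arrays held no gap between replicates, and their noise came from a fit with the replicate term. The check therefore does not show how that model does on data with such a gap, as here. The blocked model and the fit of 4 differences were not checked in this way. The labels say the replicates are biological but not how they were grown. Without the replicate term, p-values measure differences against the spread between these samples within groups. In the blocked model the replicate gap is taken out. Its p-values measure how evenly the group differences recur in the 2 replicate numbers, on 3 residual degrees of freedom.

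The 9 genes, the 7 related lists (112 entries) and the 8 lists of cell type markers were chosen with earlier results of these data known. Named are the 9 genes, Ehmt2, the related isoforms with Ak1 and Ampd1, and up to 4 called genes per list and day comparison with the largest difference. Also named is the nearest of the 5 closest genes for each of the 9 genes spanning over 1.5 units. For Pgam2, Ckm and Mb all 5 are named, and for the others only the nearest. Marker genes and other uncalled genes were picked after their values were seen. Alternatives were the replicate term, median centring, quantile normalization, all probes kept singly, the other probes, and leaving out each array. Some list genes were not analysed here.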

Additional observations from a re-analysis of the deposited data

Results flagged for a closer look

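The siG9a minus control difference of Ckb ran in opposite directions on the 2 days. It was -0.09 and -0.03 in the 2 replicate pairs at day 1, against 1.35 and 0.23 at day 0, and the change between the days was -0.85 ± 0.82 (SE; blocked 0.44). Fabp3 showed the same order with -0.02 and -0.16 at day 1, against 0.44 and 0.22 at day 0, a change of -0.42 ± 1.44 (blocked 0.25). The interaction was tested in limma and called for neither gene (adjusted p 1.0 for both, and 0.92 for both in the blocked model).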

How the results depend on the processing

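All 9 genes stayed higher at day 1 than at day 0 under every alternative run. With the replicate term, 7 genes were called in each treatment, also with all probes kept singly or after median centring, and 2825, 3813 and 3120 features in siG9a cells and 2775, 3770 and 2758 in control cells. Without it, median centring called 147 and 92 features and quantile normalization 12 and 2. Leaving out 1 array gave 0 to 8 genes and 4 to 2800 features in siG9a cells, and 0 to 7 genes and 7 to 2861 features in control cells. For siG9a minus control, the 4 paired differences called 2 genes and 256 features as the mean of both days; leaving out 1 array or pair gave 0 to 3 genes and 0 to 238 features for that mean, 0 to 1 gene and 0 to 1 feature at day 0 (Mb, without replicate 2 of siG9a day 0), and 0 genes and 0 to 1 feature at day 1. For Ckm and Mb the ranges of the day 1 minus day 0 difference stand above; for the other genes they were, in siG9a cells, Ckmt2 from 0.49 to 2.21, Ckb from 0.98 to 2.99, Pygm from 0.80 to 2.34, Eno3 from 0.19 to 1.15, Pgam2 from 1.83 to 4.35, Fabp3 from 0.53 to 2.98, Pvalb from 0.03 to 2.10, and in control cells Ckmt2 from 0.10 to 1.05, Ckb from 2.39 to 3.28, Pygm from 0.82 to 2.07, Eno3 from 0.44 to 1.31, Pgam2 from 2.99 to 4.52, Fabp3 from 1.03 to 3.32, Pvalb from 0.12 to 1.16. Among settings that left out no array, signs changed for these siG9a minus control differences, none of them called: Ckmt2 at day 0 became 0.013 after median centring and 0.15 with its second probe, Pygm and Eno3 at day 1 became -0.022 and -0.027 after median centring, and Fabp3 as the mean of both days became -0.033 after quantile normalization. Leaving out 1 array, the siG9a minus control differences ranged at day 1 for Ckm from -1.13 to 1.39, Ckmt2 from -0.11 to 1.61, Ckb from -0.40 to 0.27, Mb from -0.43 to 1.58, Pygm from -0.76 to 0.78, Eno3 from -0.47 to 0.49, Pgam2 from -0.57 to 0.90, Fabp3 from -1.31 to 1.13, Pvalb from 0.019 to 2.09; at day 0 for Ckm from -0.73 to 2.18, Ckmt2 from -0.50 to 0.45, Ckb from -0.22 to 1.80, Mb from -0.78 to 2.80, Pygm from -0.67 to 0.44, Eno3 from -0.14 to 0.57, Pgam2 from -0.43 to 2.09, Fabp3 from -0.60 to 1.26, Pvalb from -0.23 to 1.499; and as the mean of both days for Ckm from -0.30 to 1.16, Ckmt2 from -0.068 to 0.79, Ckb from -0.14 to 0.87, Mb from -0.10 to 1.69, Pygm from -0.43 to 0.34, Eno3 from -0.13 to 0.35, Pgam2 from -0.13 to 1.13, Fabp3 from -0.49 to 0.73, Pvalb from 0.33 to 1.36. These ranges pool fits with and without the replicate term. Without it, leaving out 1 array sets unequal replicates against each other, so the replicate gap enters the difference. Mb, called as the mean of both days in the fit of 4 differences, is among those that changed sign. Its value of -0.10 came without the term and without replicate 1 of siG9a day 0. Within day and replicate, Mb was higher in siG9a cells in 4 of 4 pairs. The change of that difference between the days ranged from -1.86 to 0.15 for Ckb and from -1.64 to 0.80 for Fabp3. Precision is limited by the number of arrays, and signal over background is unknown.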

Other observations

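Marker genes of other cell types, not described above, also differed between the days. The blocked day 1 minus day 0 comparison called 3.42% of all features higher in siG9a cells and 3.85% in control cells. In it, 2 of 4 smooth muscle markers rose in both treatments, Acta2 by 1.61 in siG9a and 1.65 in control cells and Tagln by 0.86 and 1.41. Acta2 was also called without the replicate term. Of 5 cardiac markers 1 rose, Myl4, the embryonic and atrial myosin light chain, by 2.88 and 3.82, while Myh6, Myl7, Nppa and Nppb were not called. Of 6 fibroblast markers, Col1a1 rose in both treatments, by 1.43 and 1.73, and Dcn was at 2.58 in siG9a cells (adjusted p 0.0703) and 2.85 in control cells (0.0486). The other fibroblast markers were not called: Pdgfra was lower at day 1, by -0.65 in siG9a and -0.52 in control cells. Col3a1 was at 0.29 and 0.53, Thy1 at 0.11 and 0.05 and Lum at 0.17 and 0.07. None of the adipocyte, endothelial, leukocyte or neuronal markers was called in either treatment (5 markers each). Fgf21, which encodes a secreted metabolic hormone, was among the 5 genes nearest to Ckm over the 8 arrays (root mean square difference 0.49).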
